A study of Mus musculus with 56 samples.

Results

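The comparison described here is that of TGF-β1 responses between ras and primary keratinocytes after 48 h of treatment. It rests on 7 of the 56 arrays of the series, 4 of ras cells (replicates 1 to 4) and 3 of primary cells (replicates 1, 2 and 5), chosen as the Balb/c arrays at 48 h whose dyes were not reversed. All 7 arrays held RNA of keratinocytes from newborn Balb/c mice, treated with TGF-β1 at 1 ng/ml and labelled with Cy5, beside untreated RNA of the same cell type labelled with Cy3. The ras cells had been transduced on day 3 of culture with a replication-defective retrovirus carrying Ha-ras and were treated 4 days after infection, with fresh medium 24 h before treatment. The labels do not give the culture day of the primary cells, and no array of cells carrying an empty retrovirus was analysed here, so the oncogene, the virus and time in culture cannot be told apart. The labels also do not say whether the arrays of a group came from separate cultures. The p-values, standard errors (SE) and intervals rest on the spread between arrays of a group, pooled over the Balb/c groups whose dyes were not reversed. This spread is not that of the 7 arrays alone, and it may be technical. The deposited values are log2 ratios, treated over untreated, and were read for 8905 features per array, 6795 of them named genes. The direction is taken from the dyes in the labels, and log base 2 is an assumption behind every fold given here. The quantity compared is the ras minus primary difference of the mean log2 ratio, so a negative value means a response that was less positive, or more negative, in ras cells. A ratio carries no level: a gene already high in untreated ras cells and a gene that TGF-β1 failed to raise give the same value.

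TGF-β1 binds a pair of receptor kinases that phosphorylate Smad2 and Smad3, which enter the nucleus with Smad4 and change transcription together with other factors. In keratinocytes it is known as an inhibitor of growth and as an inducer of matrix and protease genes, and in ras-transformed epithelial cells it is known for its part in the shift towards a mesenchymal, migratory state. Ras signals through the MAP kinase cascade and AP-1 and ETS factors, and is known to interact with Smad signalling. The cultures are enriched for keratinocytes, but cells of the dermis and of the immune system may be carried along, so markers of those cells were examined beside the keratinocyte genes.

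The spread of the log2 ratios differed between the arrays, with a standard deviation over features from 0.495 in ras replicate 4 to 0.968 in ras replicate 1. Extreme ratios were unevenly distributed too, since between 0 features (ras replicate 2) and 105 features (ras replicate 1) lay beyond 4 in size. The database experiment numbers in the titles fell into 3 separate runs, which the labels do not call batches. The first run held ras replicates 1 and 2 and primary replicate 1, the second ras replicate 3 and primary replicate 2, and the third ras replicate 4 and primary replicate 5. Across features, which are not independent, the correlation of a ras with a primary array was 0.549 between both replicates 1. It was 0.282 for the other pair of the first run, ras replicate 2 with primary replicate 1. Within the second run it was 0.377 and within the third run 0.38. Ras replicate 3 and primary replicate 1, of different runs, had 0.355. Correlations among the ras arrays lay between 0.108 and 0.312 and those among the primary arrays between 0.29 and 0.317. Some arrays of different cell types were therefore more alike than arrays of the same cell type, and differences within each run are given beside the results.

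After 48 h of TGF-β1, 15 genes had a weaker response in ras cells and 3 had a higher value there (limma, Benjamini-Hochberg adjusted p under 0.05 over all 8905 features, two-sided). These are 0.168% and 0.0337% of the features tested, while 594 features (6.67%) had an unadjusted p under 0.05, 314 of them lower (3.53%) and 280 higher (3.14%) in ras cells. All 15 genes with a weaker response had risen in primary cells by the same fit, and 3 of them, Ccl7, Lyz2 and Ddah1, had risen in ras cells as well, where 5.11% of all features rose in primary and 1.9% in ras cells. They include genes linked to the extracellular matrix (Lox, Crtap, Mfap5, Mxra8 and Timp1), the mesenchymal markers S100a4 and Twist1, and the myeloid-linked genes Ccl7 and Lyz2. All 3 genes with a higher value in ras cells, Lgals7, Ptp4a3 and Exosc6, had fallen in primary cells and none of them in ras cells, where the shares over all features were 3.49% and 1.61%. For 14 of the 15 and for 1 of the 3, every ras array lay on one side of every primary array, which held for 4.1% (ras below) and 1.91% (ras above) of all features. The responses in primary cells and this separation were read on the arrays that gave the calls. They describe the called genes and do not test them.

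**Figure D1:**
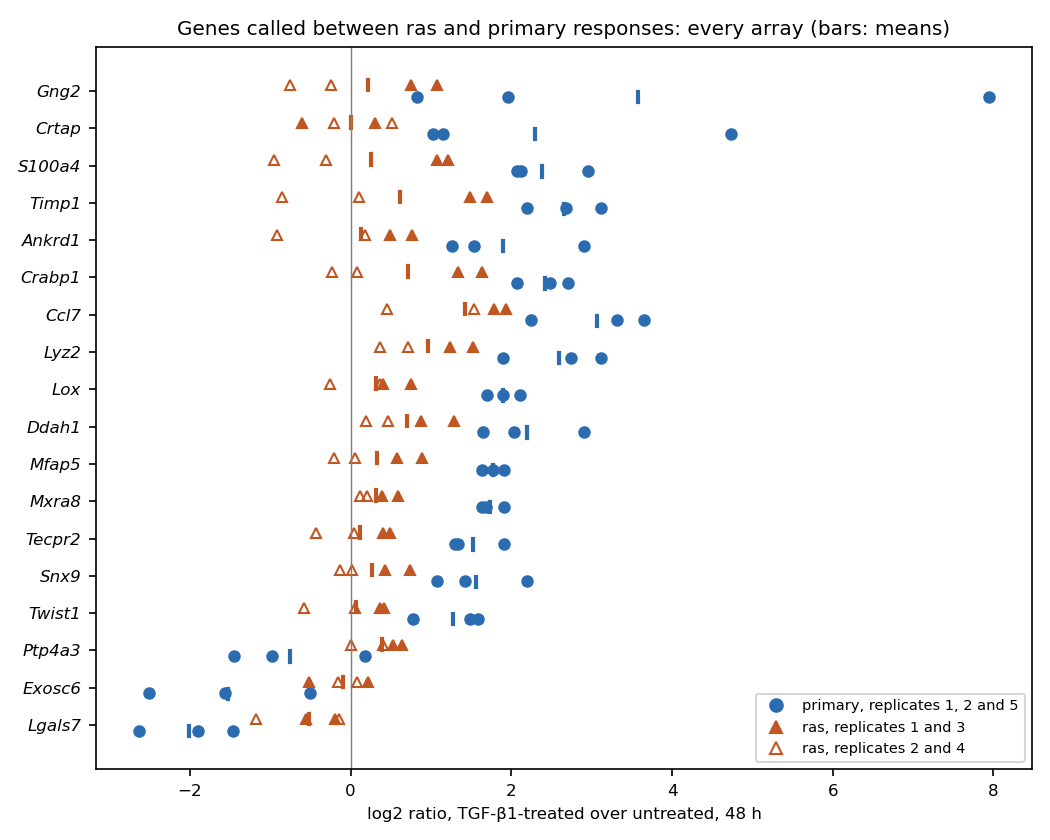
Log2 ratio of TGF-β1-treated over untreated RNA at 48 h (x axis) for the 18 genes that passed the test (rows), with 1 point for each of the 3 primary arrays (circles) and the 4 ras arrays (triangles, filled for replicates 1 and 3) and a bar at each group's mean. Primary arrays lie right of all ras arrays for 14 of the upper 15 genes, the exception being Gng2, and primary replicate 1 stands alone at 7.95 for that gene.

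The number of calls depended on single arrays and on the estimate of the spread. Without ras replicate 2 the fit called 0 genes lower and 1 higher (554 features at an unadjusted p under 0.05), without ras replicate 4 it called 1 and 1, and without primary replicate 2 it called 7 and 5. Of the 18 genes, 1, 2 and 2 respectively were still called. Without primary replicate 5 the fit called 35 lower and 45 higher, 17 of the 18 among them, and without primary replicate 1 it called 21 lower and 34 higher, 11 of the 18 among them. The 18 calls also rest on the spread shared over the Balb/c groups of one dye orientation. For some called genes it was smaller than that of the 7 arrays, and so were the SEs given. Over the primary arrays Gng2 and Crtap had standard deviations of 3.82 and 2.1, while the fit gave those means SEs of 0.56 and 0.39. Over the ras arrays Timp1 had 1.21, with an SE of 0.30. For Mxra8 the shared spread was the wider one (primary standard deviation 0.15, SE 0.19). The 7 arrays alone gave 0 calls, with 418 features at an unadjusted p under 0.05 and a smallest adjusted p of 0.351 (limma). Scaling all arrays to one spread gave 0 calls as well, with 430 features at an unadjusted p under 0.05. With the runs as a random block 27 were lower and 4 higher, and with the runs as a fixed block over all groups, an alternative chosen after seeing the data, 27 were lower and 11 higher, all 18 genes among them in both.

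**Figure D2:**
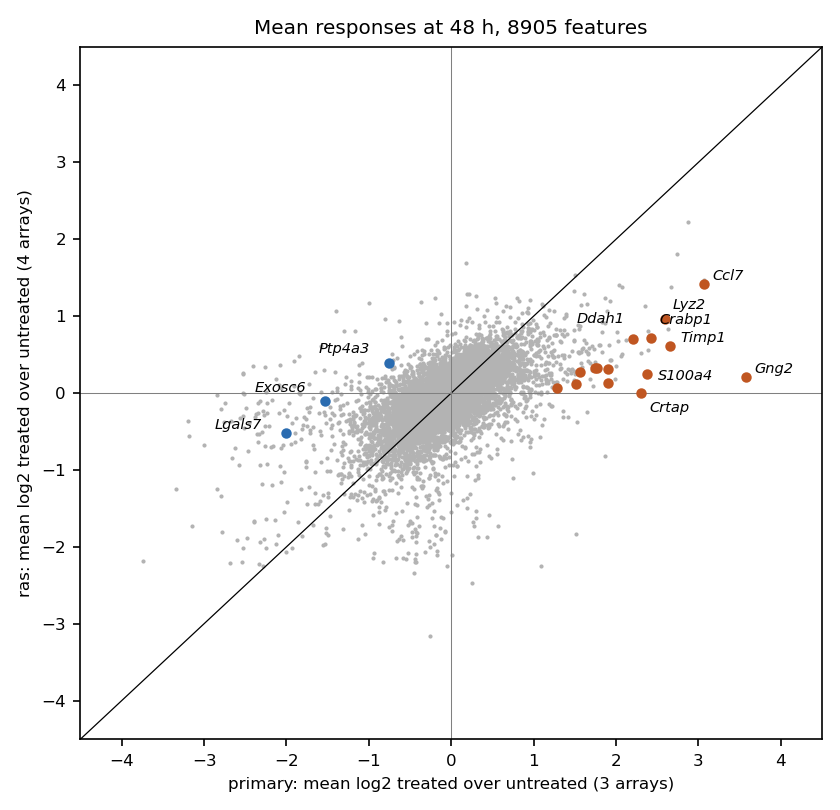
Mean log2 response at 48 h of each of the 8905 features in primary cells (x axis, 3 arrays) and ras cells (y axis, 4 arrays), with the diagonal of equal response and the 18 genes that passed the test coloured. The 15 coloured genes on the right had primary means between 1.28 and 3.58 and ras means between -0.00 and 1.42, and the 3 on the left had primary means between -2.01 and -0.75.

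The genes Lox, Crtap, Mfap5, Mxra8 and Timp1 are linked to the extracellular matrix. This grouping was made after the calls were seen, crosses 3 of the fixed lists and takes in Mxra8, which is in none of them. Lox, lysyl oxidase, which cross-links collagen and elastin, had log2 ratios of 2.11, 1.70 and 1.90 in primary replicates 1, 2 and 5, against 0.75, 0.36, 0.40 and -0.26 in ras replicates 1 to 4. The lowest primary value lay well above the highest ras value. Its response was a 3.74-fold rise in primary cells and a 1.24-fold ratio in ras cells, a difference of -1.59 on the log2 scale (SE 0.34, adjusted p = 0.0292, limma). Within the 3 runs the Lox difference was -1.56, -1.29 and -2.16.

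Crtap encodes a partner of the enzyme that hydroxylates prolines of fibrillar collagens. Its log2 ratios were 1.15, 4.73 and 1.02 on the primary arrays against 0.30, -0.21, -0.61 and 0.51 on the ras arrays, with no overlap but a primary mean set largely by replicate 2. The difference was -2.30 (SE 0.51, adjusted p = 0.0327, limma), and it was -1.09 (adjusted p = 0.65) without that array. Mfap5, a protein of elastin-associated microfibrils, had closely spaced primary values of 1.77, 1.91 and 1.64 against 0.89, -0.21, 0.58 and 0.05 in ras cells. That is a difference of -1.44 (SE 0.28, adjusted p = 0.0166), with -1.43, -1.32 and -1.59 within the runs.

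Mxra8, a transmembrane adhesion protein, had closely spaced values in both groups, at 1.69, 1.63 and 1.91 on the primary arrays against 0.39, 0.12, 0.59 and 0.20 on the ras arrays. Every ras value lay more than 1 log2 unit below every primary value. Its difference of -1.42 (SE 0.25, adjusted p = 0.0121) was still called on leaving out any array except ras replicate 2, where the adjusted p was 0.0521. Timp1, the secreted inhibitor of matrix metalloproteinases, had log2 ratios of 2.68, 3.11 and 2.20 on the primary arrays against 1.48, -0.86, 1.70 and 0.10 on the ras arrays. The groups did not overlap, though ras replicates 1 and 3 came much closer to the primary arrays than replicates 2 and 4 did. The response was 6.34-fold in primary cells and 1.52-fold in ras cells, a difference of -2.06 (SE 0.45, adjusted p = 0.0327).

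The list of collagen maturation enzymes and chaperones, to which Lox and Crtap belong, leaned one way. Both were called lower and no member was called higher, out of 16 measured, and all 16 differences were negative, with a median of -0.47, against 4496 negative of 8905 and a median of -0.004 over all features. In primary cells 10 of the 16 rose, and in ras cells 1 did, Serpinh1, the collagen chaperone Hsp47, whose responses were 0.95 in primary and 0.79 in ras cells (difference -0.16, 95% interval of the limma fit -0.68 to 0.36). Pcolce, an enhancer of procollagen processing, averaged 1.80 in primary against 0.62 in ras cells, a difference that did not pass the test (adjusted p = 0.0883, and 0.0445 with the runs as a fixed block). Fkbp7, a prolyl isomerase of the endoplasmic reticulum, averaged 1.68 and 0.59 (adjusted p = 0.103). The list's median log2 ratio was 1.13, 1.15 and 0.71 on the primary arrays and 0.74, 0.04, 0.92 and 0.24 on the ras arrays, so that ras replicates 1 and 3 lay beside primary replicate 5. Within the 3 runs the median difference was -0.87, -0.09 and -0.51.

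The structural matrix proteins were more mixed. Of 44 collagens, laminins and other matrix proteins measured, 1 was called lower (Mfap5) and 0 higher, with 26 negative differences and a median of -0.16, while 10 rose in primary and 4 in ras cells. There were 6 lower and 2 higher members at an unadjusted p under 0.05 (limma). Lama5, a laminin chain, was higher in ras cells by 1.23 without overlap (adjusted p = 0.165), and Fmod by 0.96 with overlap (adjusted p = 0.501). The type I collagen gene Col1a1 had log2 ratios of 1.50, 1.86 and 0.80 on the primary arrays against 1.48, -1.70, 2.20 and -0.90 on the ras arrays. Here ras replicates 1 and 3 matched or passed the primary arrays and ras replicates 2 and 4 were negative, and the difference was -1.12 (SE 0.77, 95% interval -2.67 to 0.44). Col1a2 had ratios of 1.78, 2.81 and 0.90 in primary cells against 1.58, -0.79, 2.02 and 0.35 in ras cells, again with ras replicates 1 and 3 above ras replicates 2 and 4 and with overlap. Biglycan (Bgn), a small proteoglycan, had ratios of 2.31, 1.95 and 2.11 against 1.20, 0.06, 1.22 and 0.28, which do not overlap, and its difference of -1.44 missed the threshold (SE 0.37, adjusted p = 0.104). Fbln5, an elastic fibre protein, differed by -1.80 (SE 0.49, adjusted p = 0.137), and Fbln2 by -0.63 (SE 0.40, adjusted p = 0.984), with ras replicate 4 the highest of all 7 arrays for Fbln2 at 2.85.

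Among 41 proteases and protease inhibitors, Timp1 was called lower and no member was called higher, with 29 negative differences and a median of -0.23, and 14 members rose in primary against 4 in ras cells. At an unadjusted p under 0.05 (limma), 11 members were lower and 3 higher. Every ras array lay below every primary array for 6 members and above for 2, against 4.1% and 1.91% of all features. Those 2 were Serpinb2 (difference 1.03, adjusted p = 0.224) and Spint2 (0.75, adjusted p = 0.403). Mmp2, a gelatinase, averaged 1.83 in primary against 0.92 in ras cells (difference -0.91, SE 0.27, adjusted p = 0.178). Ctss, a lysosomal protease typical of antigen-presenting cells, averaged 1.68 and 0.18 (adjusted p = 0.112, and 0.0445 with the runs as a fixed block). Adam9, a membrane-anchored protease, averaged 0.87 and 0.01 (adjusted p = 0.168). None of the 3 passed in the fit without blocks and with every array kept. Ctss also passed with the runs as a random block (adjusted p = 0.0444). With single arrays left out, Ctss passed in 2 fits, Mmp2 in 1 and Adam9 in 0.

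**Figure D3:**
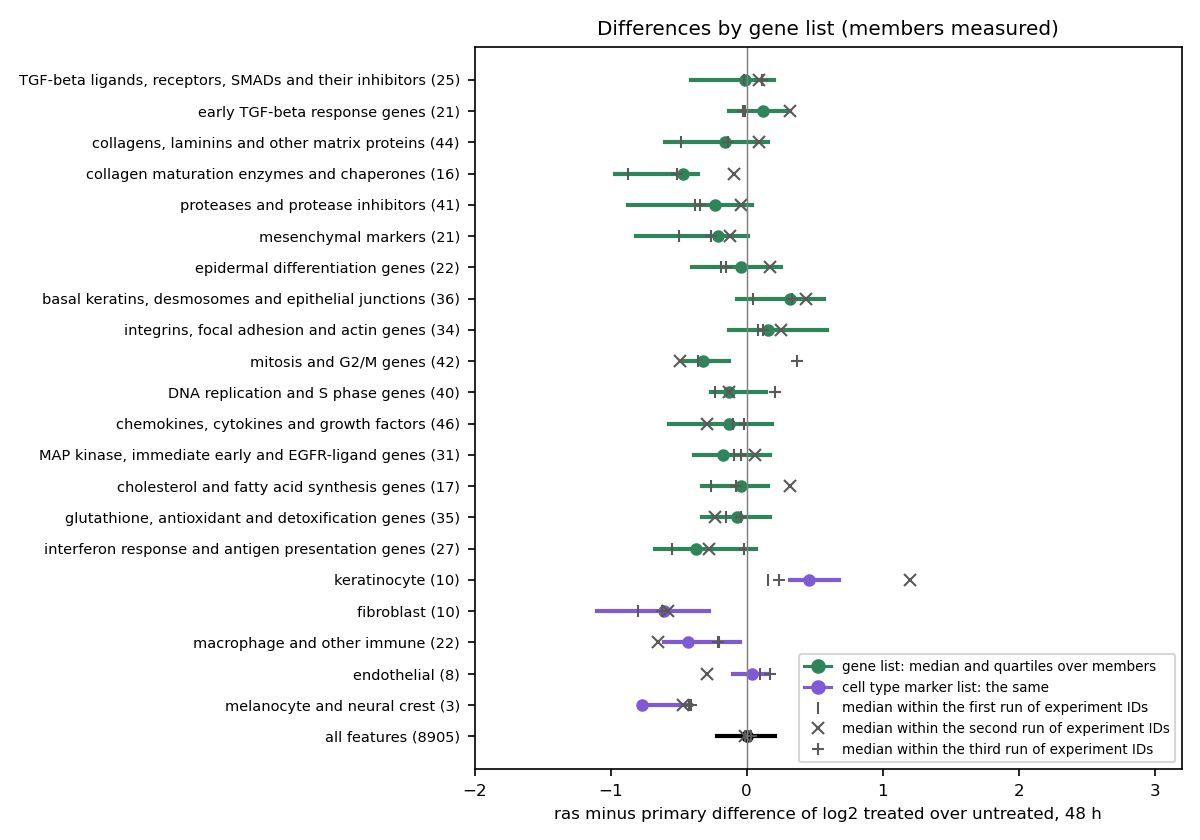
Ras minus primary difference of the log2 response at 48 h (x axis) for 16 gene lists and 5 cell type marker lists (rows, members measured in brackets), with the median and quartiles over members and the median within each of the 3 runs of experiment numbers. The collagen maturation list lies left of 0 in all 3 runs, while the mitosis list changes sides, at -0.36, -0.49 and 0.37.

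Mesenchymal markers showed 2 members called lower, S100a4 and Twist1, and 0 called higher of 21 measured. S100a4, a calcium-binding protein also known as fibroblast-specific protein, had log2 ratios of 2.12, 2.96 and 2.07 on the primary arrays against 1.21, -0.95, 1.07 and -0.31 on the ras arrays. Ras replicates 1 and 3 were above 0 and ras replicates 2 and 4 below it, yet all 4 lay under the primary arrays. The mean response was 5.22-fold in primary cells and 1.19-fold in ras cells, a difference of -2.13 (SE 0.40, adjusted p = 0.0121), and it was -1.99, -1.90 and -2.38 within the runs. Twist1, a transcription factor of mesenchymal cells, had ratios of 1.58, 1.48 and 0.77 against 0.36, -0.58, 0.42 and 0.06. All ras values lay below all primary values, with a difference of -1.21 (SE 0.28, adjusted p = 0.0438).

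Over the 21 mesenchymal markers, 15 differences were negative and 6 positive. The median was -0.21, and -0.50, -0.12 and -0.26 within the runs. At an unadjusted p under 0.05 (limma), 5 members were lower and 1 higher. The largest positive differences were those of Cnn2 (1.20, limma adjusted p = 0.49), with primary replicate 5 at -3.52, and Cdh11 (0.78, adjusted p = 0.96), with ras replicate 4 at 3.37. For 7 members every ras array lay below every primary array, which held for 4.1% of all features. Cdh2, N-cadherin, was among these 7 with ratios of 1.82, 2.46 and 1.52 against 0.55, -0.23, 1.19 and 0.20, and its difference of -1.51 did not pass the test (SE 0.45, adjusted p = 0.182). In primary cells 5 members rose and in ras cells 2 did, against 5.11% and 1.9% of all features. The list's median log2 ratio was 0.76, 0.61 and 0.40 on the primary arrays and 0.36, -0.12, 0.23 and 0.15 on the ras arrays.

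Among genes that TGF-β is known to change early, Ankrd1 alone was called. Ankrd1, an ankyrin repeat protein of the nucleus and the muscle sarcomere, had log2 ratios of 1.53, 2.91 and 1.26 on the primary arrays against 0.76, 0.17, 0.49 and -0.92 on the ras arrays. The groups did not overlap, and the difference was -1.77 (SE 0.41, adjusted p = 0.0438). Of the 21 early response genes measured, Ankrd1 was called lower and none higher, 14 differences were positive, and the median was 0.12. In primary cells 4 rose and 2 fell, and in ras cells 6 rose and 1 fell.

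Thbs1, thrombospondin 1, rose in both cell types, by 0.93 in primary and 1.11 in ras cells, with a difference of 0.18 (95% interval -0.57 to 0.93). Ccn1, a matricellular protein, rose by 1.61 and 1.29 (difference -0.32, 95% interval -1.14 to 0.51). Id1, an inhibitor of differentiation that TGF-β represses in epithelial cells, fell by 1.99 in primary cells and by 1.42 in ras cells (difference 0.57, 95% interval -0.63 to 1.78). The cell cycle inhibitor Cdkn2b averaged 0.86 in primary cells, which missed the threshold (adjusted p = 0.0653), and 1.04 in ras cells, which passed it (adjusted p = 0.0185), with a difference of 0.18 (95% interval -0.61 to 0.98). Clu, clusterin, a secreted chaperone, had the highest mean ratio of this list in each cell type, with 3.02, 2.98 and 2.62 on the primary arrays against 3.32, 1.15, 3.27 and 1.17 on the ras arrays. Ras replicates 1 and 3 were above every primary array and ras replicates 2 and 4 far below, and the Clu difference of -0.65 had a 95% interval from -1.94 to 0.65. Each of these 5 intervals reached at least 0.51 on both sides of 0.

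The components of the pathway itself gave no call in either direction among 25 ligands, receptors, SMADs and inhibitors (limma, 2 lower and 0 higher at an unadjusted p under 0.05), with 13 negative and 12 positive differences and a median of -0.01. Ltbp2, a latent TGF-β binding protein, came nearest, at 2.49, 2.19 and 1.54 on the primary arrays against 1.10, -0.24, 1.11 and 0.06 on the ras arrays. Its groups were separate, with a difference of -1.57 (SE 0.37, adjusted p = 0.0586), which passed with the runs as a fixed block (adjusted p = 0.0382). The ligand Tgfb3 averaged 1.87 in primary cells, where it rose, and 0.91 in ras cells (difference -0.96, SE 0.47, adjusted p = 0.731). Smad7, the inhibitory SMAD, averaged 0.74 and 0.31 (difference -0.43, 95% interval -1.30 to 0.44), and the receptor Tgfbr2 averaged -0.75 and -0.13 (difference 0.62, 95% interval -0.04 to 1.29). Tgfb1 differed by 0.20 (SE 0.30, 95% interval -0.40 to 0.80). Smad3 differed by -0.15 with a 95% interval from -2.01 to 1.70, too wide to place it. Hras was not measured by a named probe, so the transduced gene could not be checked.

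Promoter sequences were examined for letters that AP-1, SMAD and ETS factors are known to bind, in RefSeq windows of 300 bases on GRCm38.p6, 250 before and 50 after the gene's start. Of the 18 genes, 11 with a weaker and 2 with a higher value in ras cells had a window. The short SMAD element CAGACA, on either strand, was found in the windows of Ankrd1 and Twist1, 18.2% of the 11, and in 20% of the windows of all 5377 measured genes that have one. Among the genes with a higher value it was found for Lgals7. The AP-1 element TGANTCA was found for Gng2 alone, 9.09% of the 11 against 7.18% of all. The palindrome GTCTAGAC (0.316% of all) and the ETS element CCGGAAG (16.5% of all) were found in none of the 13 windows. The palindrome and the short element share the letters AGAC. The 250 bases before the start are printed for the 3 genes with the short SMAD element, because these are called genes on both sides of the comparison that carry the same letters, with the match in capitals. They lie at chr19:36119845-36120094 on the minus strand for Ankrd1, chr12:33957421-33957670 on the plus strand for Twist1 and chr7:28864136-28864385 on the plus strand for Lgals7, where the match reads as the reverse complement.
Ankrd1: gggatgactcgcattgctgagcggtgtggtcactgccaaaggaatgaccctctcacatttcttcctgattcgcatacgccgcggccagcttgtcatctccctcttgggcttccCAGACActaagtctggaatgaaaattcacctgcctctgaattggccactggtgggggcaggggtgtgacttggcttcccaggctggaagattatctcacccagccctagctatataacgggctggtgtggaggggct
Twist1: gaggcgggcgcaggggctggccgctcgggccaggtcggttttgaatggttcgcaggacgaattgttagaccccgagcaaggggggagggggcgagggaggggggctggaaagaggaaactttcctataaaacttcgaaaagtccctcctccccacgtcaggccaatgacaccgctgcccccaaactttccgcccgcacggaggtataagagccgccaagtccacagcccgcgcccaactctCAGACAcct
Lgals7: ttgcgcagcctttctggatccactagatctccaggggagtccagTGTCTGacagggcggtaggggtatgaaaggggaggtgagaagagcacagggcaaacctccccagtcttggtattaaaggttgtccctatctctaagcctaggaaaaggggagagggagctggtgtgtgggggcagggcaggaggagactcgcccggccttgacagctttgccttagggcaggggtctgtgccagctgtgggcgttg
Ankrd1 and Twist1 had lower ratios in ras cells and Lgals7 a higher one, so the same letters stand before genes that differ in direction, and their share is near that of all measured genes.

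The chemokine Ccl7, which attracts monocytes, rose in both cell types and less in ras cells. Its log2 ratios were 3.31, 3.65 and 2.25 on the primary arrays against 1.77, 1.53, 1.93 and 0.45 on the ras arrays, without overlap. That is an 8.40-fold rise in primary and a 2.68-fold rise in ras cells (adjusted p = 0.000704 for ras against 0), and the difference of -1.65 (SE 0.36, adjusted p = 0.0327) was nearly the same in the 3 runs, at -1.66, -1.72 and -1.80. Lyz2, the lysozyme of macrophages and granulocytes, had ratios of 2.74, 3.12 and 1.89 against 1.24, 0.72, 1.52 and 0.36. It rose 6.00-fold in primary and 1.94-fold in ras cells, with a difference of -1.63 (SE 0.33, adjusted p = 0.0206) and -1.76, -1.61 and -1.54 within the runs.

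Ccl7 was the only call among 46 chemokines, cytokines and growth factors, of which 28 had negative differences with a median of -0.13. Csf1, the growth factor of macrophages, had ratios of 3.41, 3.59 and 2.22 against 2.13, 0.60, 2.10 and 1.07. The groups did not overlap, but the difference of -1.60 did not pass the test (SE 0.50, adjusted p = 0.201). Cxcl10, an interferon-induced chemokine, averaged 1.17 in primary against 0.02 in ras cells (adjusted p = 0.151). Ccl27a, a skin chemokine made by keratinocytes, went the other way, at -1.54, -1.77 and -0.73 in primary cells against -0.43, 0.10, -0.64 and 0.14 in ras cells, without overlap (difference 1.14, SE 0.32, adjusted p = 0.153). Among 27 interferon and antigen presentation genes 0 were called (4 lower and 0 higher at an unadjusted p under 0.05), 18 differences were negative, and the median of -0.37 came from -0.55, -0.28 and -0.02 within the runs. Ifit3, an antiviral protein, averaged 1.45 in primary against 0.26 in ras cells (difference -1.19, SE 0.29, adjusted p = 0.0742, and 0.0494 with the runs as a fixed block).

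Markers of cells other than keratinocytes were read beside these genes, and 2 of them were called, both lower in ras cells. Of 22 macrophage and other immune markers measured, 17 had negative and 5 positive differences with a median of -0.43 (limma, 5 lower and 1 higher at an unadjusted p under 0.05). Lyz2 was the only one called. Their median log2 ratio was 0.05, 0.46 and 0.10 on the primary arrays and -0.01, -0.27, -0.03 and -0.06 on the ras arrays. The adaptor Tyrobp averaged 1.01 in primary against 0.02 in ras cells (adjusted p = 0.182), Fcer1g averaged 0.77 and 0.17 (adjusted p = 0.549), and Cd68 averaged 0.45 and -0.12 (adjusted p = 0.991). Of 10 fibroblast markers 8 had negative differences and 2, Dcn and Lum, positive ones (0.05 and 0.14). The 10 markers had a median of -0.61, and Mfap5 was the only one called. Their median ratio was 0.63, 0.38 and 0.56 on the primary arrays and 0.01, -0.22, 0.14 and -0.02 on the ras arrays, so that the groups did not overlap. The 8 endothelial markers had a median difference of 0.04 and the 3 melanocyte and neural crest markers one of -0.77, with no call in either list (0 and 1 members at an unadjusted p under 0.05). Ratios do not show whether any of these markers was present or absent, so their summed levels cannot be given, and the part of other cell types in the calls for Lyz2, Mfap5, S100a4 and the matrix genes was not tested. In such bulk RNA, fewer cells of a type and less RNA per cell cannot be told apart.

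The remaining 5 genes with a weaker response belong to none of the 16 gene lists and 5 marker lists. Crabp1, a retinoic acid binding protein, had log2 ratios of 2.70, 2.48 and 2.07 on the primary arrays against 1.64, -0.23, 1.34 and 0.08 on the ras arrays. Again there was no overlap, and the difference was -1.71 (SE 0.36, adjusted p = 0.0244). Ddah1, which degrades a natural inhibitor of nitric oxide synthase, had ratios of 2.03, 2.91 and 1.65 against 0.87, 0.19, 1.29 and 0.46. It rose 4.58-fold in primary and 1.62-fold in ras cells (adjusted p = 0.023 for ras against 0), with a difference of -1.50 (SE 0.28, adjusted p = 0.0121).

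Tecpr2, a protein linked to autophagy, had log2 ratios of 1.34, 1.30 and 1.91 on the primary arrays against 0.40, -0.43, 0.49 and 0.04 on the ras arrays. The difference was -1.39 (SE 0.32, adjusted p = 0.0438), without overlap. Snx9, a sorting nexin of endocytosis, had ratios of 1.42, 2.19 and 1.07 against 0.43, 0.02, 0.74 and -0.13, also without overlap (difference -1.29, SE 0.27, adjusted p = 0.0265). Gng2, a G protein subunit, had the largest difference, -3.37 (SE 0.75, adjusted p = 0.0327), and it rested on 1 array. Its ratios were 7.95, 1.96 and 0.83 on the primary arrays against 0.75, -0.25, 1.08 and -0.75 on the ras arrays, so ras replicate 3 lay above primary replicate 5, and without primary replicate 1 the difference was -1.19 (adjusted p = 0.299).

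Of the 3 genes with a higher value in ras cells, Lgals7 alone had separate groups. Lgals7, galectin-7, a lectin of stratified epithelia, had log2 ratios of -1.47, -2.64 and -1.91 on the primary arrays against -0.19, -0.14, -0.56 and -1.18 on the ras arrays. All 7 values were negative, and those of the ras arrays were all closer to 0. TGF-β1 lowered it to 0.249 of the untreated level in primary cells and the ratio was 0.698 in ras cells (adjusted p = 0.162 for ras against 0), a difference of 1.49 (SE 0.33, adjusted p = 0.0327) with 1.31, 2.07 and 0.73 within the runs. Ptp4a3, a phosphatase also called PRL-3, had ratios of 0.18, -1.45 and -0.98 against 0.53, 0.01, 0.64 and 0.40 (difference 1.14, SE 0.23, adjusted p = 0.0206). The groups overlapped through primary replicate 1. Exosc6, a subunit of the RNA exosome, had ratios of -2.51, -1.56 and -0.51 against -0.52, 0.08, 0.22 and -0.16 (difference 1.43, SE 0.29, adjusted p = 0.0211). Its groups overlapped narrowly, and its 2 probes disagreed, with differences of 2.51 and 0.36.

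Basal keratins, desmosomal and junction genes had no call in either direction, and 7 higher and 0 lower members at an unadjusted p under 0.05 (limma). Of 36 measured, 25 had positive differences with a median of 0.32, and 8 fell in primary cells while none fell in ras cells. Trp63, the transcription factor of basal keratinocytes, had log2 ratios of -0.86, -1.26 and -0.91 on the primary arrays against 0.17, -0.70, 0.07 and 0.27 on the ras arrays. The groups did not overlap, and the difference of 0.96 did not pass the test (SE 0.27, adjusted p = 0.151). P-cadherin (Cdh3) had ratios of -0.63, -2.23 and -1.28 against 0.32, 0.34, -0.71 and -0.24, which overlap (difference 1.31, adjusted p = 0.138). Krt19 differed by 1.39 (adjusted p = 0.153), with primary replicate 2 at -3.57, and Itgb4, the hemidesmosomal integrin, by 0.68 (adjusted p = 0.645). The 10 keratinocyte markers had 8 positive differences and a median of 0.46, which was 0.16, 1.20 and 0.24 within the runs. Integrin, focal adhesion and actin genes had 0 calls among 34 (7 higher and 1 lower at an unadjusted p under 0.05), with 21 positive differences and a median of 0.16.

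Of 22 epidermal differentiation genes measured, 10 fell in each cell type and the remaining 12 of each passed in neither direction, with a median response of -0.76 in primary and -0.84 in ras cells, and 0 members were called for the difference (1 lower and 2 higher at an unadjusted p under 0.05), whose median was -0.04. Sprr2a1, a cornified envelope protein whose probe may share signal with its close paralogs, had ratios of -1.80, -3.15 and -2.03 on the primary arrays against -1.76, -3.07, -1.80 and -2.27 on the ras arrays. The groups covered the same range, and the difference was 0.10 (95% interval -0.59 to 0.80), or -0.17 with all arrays scaled to one spread. Periplakin (Ppl), another envelope protein, fell by 1.12 and 0.82 (difference 0.30, 95% interval -0.20 to 0.80), and Sprr1a by 1.49 and 1.85 (difference -0.35, 95% interval -1.24 to 0.53). Ly6d, a surface protein of stratified epithelia, averaged -2.85 in primary against -1.25 in ras cells (adjusted p = 0.191). Defb1, a defensin, averaged -3.34 and -1.25 (difference 2.08, SE 0.53, adjusted p = 0.0927, and 0.0385 with the runs as a random block). Klk7, a protease of the cornified layer, averaged -0.16 and -1.14 (adjusted p = 0.673), the reverse order.

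Mitosis and G2/M genes had 0 calls among 42 (2 lower and 0 higher at an unadjusted p under 0.05), although 38 differences were negative, with a median of -0.32. The list's median log2 ratio was -0.58, 0.03 and -0.24 on the primary arrays and -1.02, -0.77, -0.60 and 0.13 on the ras arrays. Ras replicate 4 was the highest of all 7 arrays and the other 3 ras arrays the lowest, and the median difference was -0.36 and -0.49 in the first 2 runs and 0.37 in the third run. In ras cells 5 members fell and in primary cells 0 did. Kif4, a mitotic kinesin, averaged -0.44 in primary against -1.44 in ras cells (difference -1.01, SE 0.40, adjusted p = 0.476), and Bub1b, a checkpoint kinase, averaged -0.14 and -0.83 (adjusted p = 0.78). The 40 S phase genes had a median difference of -0.13 and no call (4 lower and 2 higher at an unadjusted p under 0.05). Clspn, a replication checkpoint mediator, had the largest difference among them, -3.34 (SE 0.83, adjusted p = 0.0816), and it came from 1 run, where primary replicate 2 was at 4.73 and ras replicate 3 at -5.61, with -0.50 and -0.11 in the other 2 runs.

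The 3 remaining lists gave no calls in either direction, with 0, 2 and 4 lower and 0, 0 and 1 higher members at an unadjusted p under 0.05 in the order given here. The 31 MAP kinase, immediate early and EGFR-ligand genes had a median difference of -0.17, and Hbegf, an EGFR ligand, averaged 0.26 in primary against -0.34 in ras cells (adjusted p = 0.866). The 17 cholesterol and fatty acid genes had a median of -0.04, with Srebf2, a regulator of sterol synthesis, at 0.57 and -0.18 (adjusted p = 0.176). The 35 glutathione and antioxidant genes had a median of -0.07, and 5 of them had every ras array below every primary array, against 4.1% of all features. Gsto1, a glutathione transferase, averaged 1.09 and 0.17 (difference -0.92, SE 0.23, adjusted p = 0.0883, and 0.0494 with the runs as a fixed block), and Prdx4, a peroxiredoxin of the endoplasmic reticulum, averaged 0.92 and -0.08 (adjusted p = 0.136).

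The ras arrays differed among themselves in a regular way over the called genes. Ras replicates 1 and 3 both lay above ras replicates 2 and 4 for 14 of the 15 genes with a weaker response, an order that 19.7% of all features showed. Ras replicate 2 was below 0 for 8 of the 15, ras replicate 4 for 5, ras replicate 3 for 1 and ras replicate 1 for 0. Leaving out ras replicate 2 or 4 ended most calls, while leaving out ras replicate 1 or 3 kept 17 of the 18 each. The direction of the difference was the same in all 3 runs for all 15 genes and for all 3 genes with a higher value, against 16.2% and 16.3% of all features. The genes were called on the same arrays, so this describes them and does not test them.

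**Figure D4:**
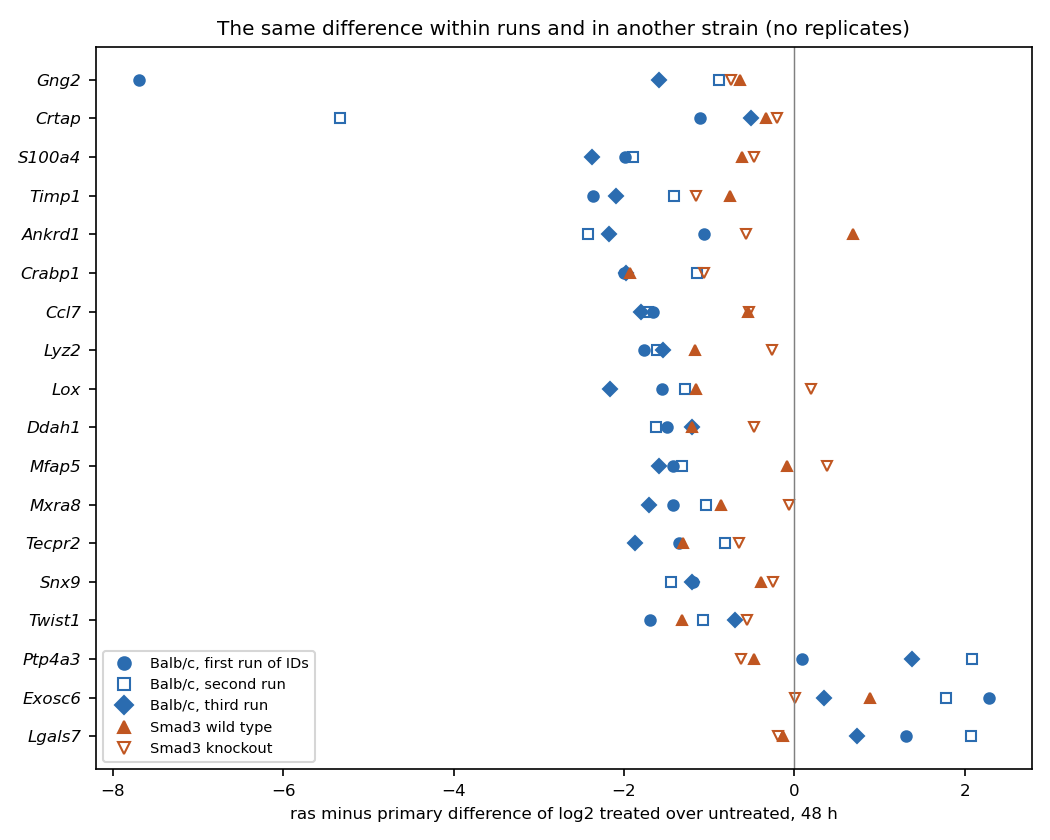
Ras minus primary difference of log2 treated over untreated at 48 h (x axis) for the 18 called genes (rows), within each of the 3 runs of experiment numbers of the Balb/c arrays and on the single forward Smad3 wild type and knockout arrays. The Balb/c points keep the sign of the difference in every run, and the Smad3 wild type point is on the other side of 0 for Ankrd1, Ptp4a3 and Lgals7.

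Arrays that the comparison did not use were read in the same way. Cells of Smad3 wild type (Smad3+/+) and knockout (Smad3-/-) mice of strain C57B1/SVJ were treated for 48 h, with 1 forward array for each genotype and cell type and, for the knockout, 1 further array of each cell type with reversed dyes. On the wild type arrays the ras value was below the primary value for 14 of the 15 genes, Ankrd1 excepted, against 51.5% of all features. Lox had a log2 difference of -1.15, Crabp1 -1.93, Twist1 -1.32, Ddah1 -1.20 and Lyz2 -1.17 there, while Mfap5 differed by -0.09. On the knockout arrays it was below for 13 of the 15, with Lox at 0.19 and Mfap5 at 0.38 as the exceptions, against 52.6% of all features. The reversed knockout arrays correlated with the forward ones at 0.482 (primary) and 0.412 (ras) as deposited, and there the ras value was below the primary value for 6 of the 15, against 53.8% of all features. Lyz2 differed by -1.37 on them, and Timp1 by 0.41. Of the 3 genes with a higher value in Balb/c ras cells, Exosc6 alone was higher in ras cells on the wild type arrays (0.89) and on the knockout arrays (0.01), and Lgals7 differed by -0.13 and -0.19. The median difference of the mitosis list was 1.05 and 0.85 on the forward wild type and knockout arrays, opposite in sign to that of the Balb/c arrays. Other lists turned sign too, among them the S phase list (0.70 and 0.17) and the interferon list (0.46 and 0.18). Ifit3 differed by 1.26 and 0.96 and Cxcl10 by 1.17 and 0.15. The collagen maturation list (-0.58 and -0.19) and the mesenchymal list (-0.61 and -0.27) kept their sign.

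The 3 Balb/c arrays at 48 h with reversed dyes, 2 of primary and 1 of ras cells, were left out because the sign of their deposited ratios is not settled. Over all features the reversed primary arrays correlated with the forward primary arrays at -0.122 to 0.148, and the reversed ras array with the forward ras arrays at 0.001 to 0.173. Both reversed primary arrays were negative for 13 of the 15 genes with a weaker response in ras cells, and both were positive for all 3 genes with a higher value. The reversed ras array was above 0 for 10 of the 15 and had the sign of the forward ras mean for 9. No share over all features is given for these signs, so how unusual they are cannot be said. The reversed ras array lay above the reversed primary array of the same run for all 15, against 47.5% of all features. Timp1 read -1.90 and -1.07 on the reversed primary arrays and 0.24 on the reversed ras array, and Lgals7 read 3.12, 2.29 and 1.39. Added as deposited, these arrays left 0 calls (260 features at an unadjusted p under 0.05), and with their sign turned they gave 20 lower and 13 higher, 14 of the 18 among them.

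After shorter treatments none of the 18 genes was called for a ras minus primary difference. At 1 h, 6 h and 24 h their differences ranged from -0.29 to 0.40, from -0.33 to 0.33 and from -0.66 to 0.84. Over all features the fit called none at 1 h and 6 h (4.17% and 4.59% at an unadjusted p under 0.05), and 1 lower and 3 higher at 24 h (0.0112% and 0.0337%, with 10.3% at an unadjusted p under 0.05). At 24 h Timp1 averaged 0.75 in primary against 0.40 in ras cells, S100a4 0.24 and -0.07, and Lox 0.06 and 0.47. The differences of Ccl7 (means of 1.00 and 0.38) and of Lgals7 (0.84, SE 0.25, adjusted p = 0.357) had the sign of their 48 h differences. The change of the difference from 24 h to 48 h was called for none of the 18, with adjusted p-values from 0.0756 (Lox) to 0.979 (Lgals7), so a difference between the time points is not shown for them.

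**Figure D5:**
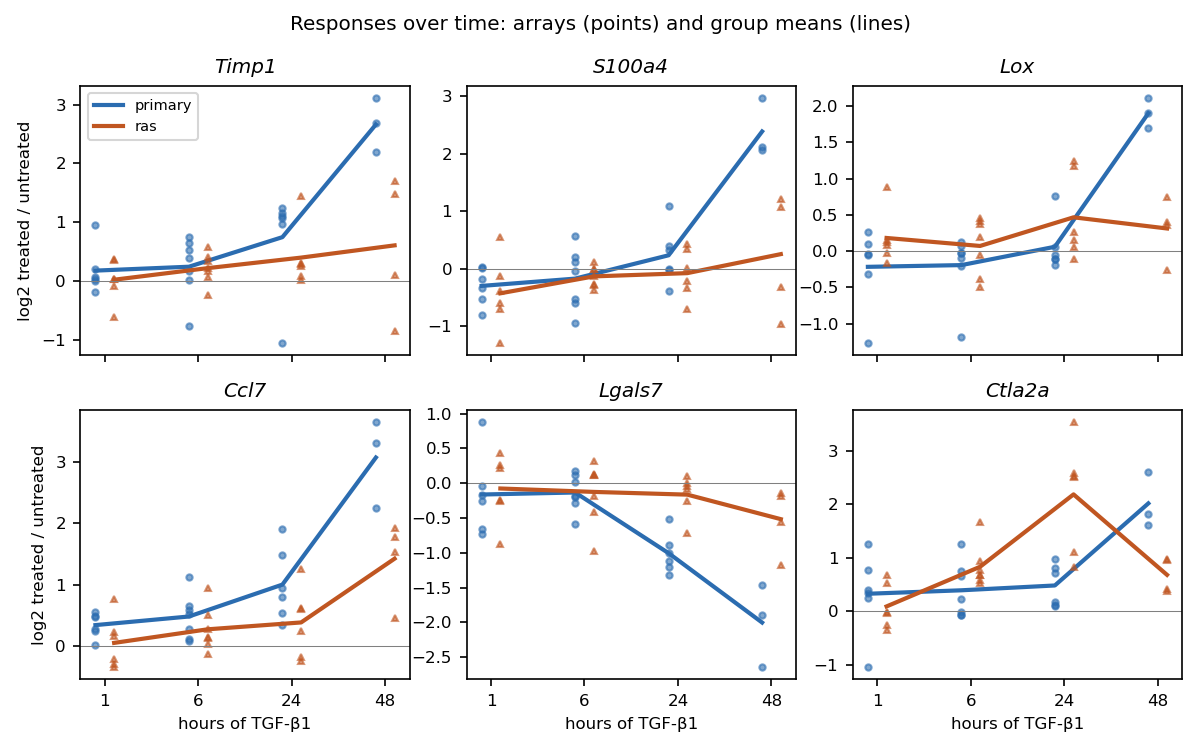
Log2 ratio of treated over untreated RNA (y axis) against hours of TGF-β1 (x axis, time points evenly spaced) for 6 genes, with a point for each array and lines through the group means, coloured by cell type. The 48 h primary means of Timp1, S100a4, Lox and Ccl7 were 2.66, 2.38, 1.90 and 3.07, and the lines of Ctla2a cross between 24 h, where ras cells averaged 2.18, and 48 h, where they averaged 0.68.

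The change from 24 h to 48 h was called for 1 feature of 8905 (0.0112%, with 453 or 5.09% at an unadjusted p under 0.05). This was Ctla2a, a cysteine protease inhibitor known from activated T cells. At 24 h its log2 ratio ran from 0.10 to 0.97 over 6 primary arrays and from 0.83 to 3.54 over 6 ras arrays, and at 48 h it was 1.82, 2.61 and 1.62 on the primary arrays against 0.95, 0.42, 0.97 and 0.38 on the ras arrays. All ras arrays but replicate 3 lay above every primary array at 24 h, and all lay below them at 48 h. The difference was 1.70 at 24 h (SE 0.34, adjusted p = 0.0228) and -1.34 at 48 h (SE 0.45, adjusted p = 0.276), a change of -3.04 (SE 0.56, adjusted p = 0.0263). The call was lost without ras replicate 2 (-2.96, adjusted p = 0.11), without ras replicate 4 (-2.94, 0.115) and without primary replicate 2 (-2.75, 0.18), and with all arrays scaled to one spread (-2.50, 0.456) or the reversed arrays added as deposited (-1.96, 0.9). Its close paralog Ctla2b, whose probe may share signal with it, differed by 1.48 at 24 h (adjusted p = 0.0646) and -0.93 at 48 h, a change of -2.41 (adjusted p = 0.0756). On the Smad3 wild type arrays at 48 h, Ctla2a was 0.49 in primary and 2.14 in ras cells, in the order of the Balb/c arrays at 24 h.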

How the data were processed

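RNA of treated and untreated keratinocytes was hybridised on 2-colour spotted arrays. The authors deposited 1 table of log ratios, 9596 probes on 56 arrays without missing values; the unit of these deposited values is taken as log2, since sizes reach 11.328. What the authors did before depositing the log2 ratios (base, background correction, normalization, reader) was not stated by any label or header read. No intensities were used, so probes near background could not be left out; the number of arrays limits the precision. Of the probes, 7486 had 1 gene symbol, 483 several and 1627 none in GEO's platform annotation, and 7395 were matched to RefSeq. After centring arrays on their medians, probes sharing a symbol were averaged (631 genes), giving 8905 features. limma 3.58.1 in R 4.3.3 (lmFit, eBayes) fitted 1 mean per group over the 49 arrays of forward dye orientation, with 37 residual degrees of freedom, and p-values were two-sided and Benjamini-Hochberg adjusted over all features. The script was tested on simulated data, whose noise was independent between arrays and had the same spread on every array for a given feature. The real arrays differed in spread, which that test does not cover.

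The arrays, genes and gene lists described were chosen with earlier results of these data known. Named genes are the 12 largest called differences in each direction without overlap between the groups, and called list members; Gng2, Snx9, Ptp4a3 and Exosc6 complete the 18 calls, and these and the uncalled genes were chosen after their values were seen. Promoters were read from RefSeq windows on GRCm38.p6. Alternatives were the arrays used, reversed arrays, blocks, centring, scaling, array weights, probe choice, moderation and leaving out each array.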

Additional observations from a re-analysis of the deposited data

Results flagged for a closer look

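Ctla2a stood out because its ras minus primary difference at 24 h and at 48 h differed by a test of the change itself. The difference was 1.70 at 24 h and -1.34 at 48 h, a change of -3.04 on the log2 scale (SE 0.56, limma, adjusted p = 0.0263), and the call was lost without ras replicate 2, ras replicate 4 or primary replicate 2 (adjusted p = 0.11, 0.115 and 0.18) and with arrays scaled to one spread (0.456) or the reversed arrays added as deposited (0.9). All 4 ras arrays at 48 h lay below all 3 primary arrays. Among the 19 genes examined on the 4 ras arrays, none had an array far enough from the others to stand out by Dixon's test. That result covers the ras arrays only, so it says nothing about primary values such as 7.95 for Gng2 or 4.73 for Crtap.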

How the results depend on the processing

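The counts of 15 lower, 3 higher and 1 changed feature stayed within 1.5 times without centring, with robust moderation and with values limited to 4 in size, the last chosen after seeing the data. The 48 h arrays alone gave 0 and 0, also with the experiment runs as a fixed block. With the reversed arrays as deposited all 3 counts were 0, and likewise with arrays scaled to one spread. The reversed arrays with sign turned gave 20 lower, 13 higher and 2 changed, the runs as a random block 27, 4 and 7, and array weights 21, 2 and 3. Without the 2 widest arrays 27 were lower, and a fixed block for the runs over all groups, chosen after seeing the data, gave 27 and 11. Leaving out each array gave 0 to 35 lower, 1 to 45 higher and 0 to 12 changed; the cause was not tested. Primary and ras arrays share the numbers 1 and 2 only, with correlations of their deviations of 0.39 and 0.048, so the numbers were not taken to pair them. Arrays of the same run gave 0.39 and -0.166 (primary 1 with ras 1 and 2), 0.236 and 0.375; the replicate block on the 48 h arrays alone gave 0 and 0 calls, 604 features at an unadjusted p under 0.05, and Thbs1 at -0.16. With the reversed arrays as deposited the sign turned for Lgals7 (-0.02), Tgfb3 (0.17), Defb1 (-0.37), Ly6d (-0.39), Trp63 (-0.01), Ccl27a (-0.12), Hbegf (0.01), Id1 (-0.52), Ccn1 (0.14), Sprr2a1 (-1.18), Ppl (-0.42), Tgfb1 (-0.03), Clu (0.72), Col1a2 (0.08), Mmp2 (0.16), Fbln2 (0.11) and Serpinh1 (0.27), and with their sign turned Ccn1 came to 0.00. Sprr2a1 was -0.17 scaled and -0.09 with array weights. With each array left out, Sprr2a1 ran from -0.31 to 0.38, Smad3 from -0.54 to 0.20 and Serpinh1 from -0.38 to 0.03. No setting turned the sign of the other 17 called genes. Background correction and a filter on dim probes could not be tried on ratios.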
